A study of Mus musculus with 16 samples.

Results

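Bst1 and 7 other genes for enzymes that make, break down or process nicotinamide adenine dinucleotide (NAD) were followed in mouse terminal ileum, 8 of the 24940 genes in the deposited table. The 8 genes are Bst1, Cd38, Sarm1, Nampt, Naprt, Nadsyn1, Nt5e and Enpp1. Bst1 was chosen by a measured value, its higher level in male LKO than in male WT ileum in an earlier look at the same libraries. Its male values, and every comparison that holds male libraries, therefore describe Bst1 and do not test it. The other 7 were joined to it by what their enzymes do.

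NAD carries electrons in metabolism and is also consumed as a substrate. Cells rebuild it from nicotinamide, nicotinic acid or tryptophan. Enzymes on the cell surface, Bst1 and Cd38 among them, cleave NAD to ADP-ribose, cyclic ADP-ribose and nicotinamide, and others degrade the products step by step to adenosine. In mouse intestine Bst1 is known from Paneth cells of the crypt, and Nt5e from epithelium and lymphocytes.

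The study asked how the repressor Bcl6 in the liver controls bile acids and works together with the bile acid sensor FXR. Ileum RNA was a part of it, used to follow bile acid feedback signalling after loss of Bcl6 in the liver. RNA was sequenced from 1 cm of whole ileum just before the cecum in 16 samples from C57BL/6 mice, 4 in each of 4 groups. Both WT groups were Bcl6 fl/fl and both LKO groups were Bcl6 fl/fl with Alb-cre, so every mouse carried the floxed allele and the LKO mice carried Cre as well. The albumin promoter drives Cre in hepatocytes, and no group carried Cre without the floxed allele. The ages of the mice are not given in the sources used here. The sample titles give sex, genotype, a replicate number and a further number, P6308 to P6444, whose meaning they do not state.

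Depth was 15.7 to 20.5 M counts for all libraries but female LKO replicate 1, which had 60.3 M, and a floor of 3 counts lay between 0.0485 and 0.191 CPM. CPM is a gene's count scaled to a common library total, here also adjusted between libraries by trimmed mean of M-values. All 8 ileal enterocyte markers were detected in every group, with sums of 10094 to 14101 CPM per library. Bcl6 itself, which Alb-cre does not delete in intestine, was at 9.24 to 17.9 CPM in WT and 15.2 to 26.1 CPM in LKO ileum, so its ileal level does not check the genotype labels. In females Bcl6 was at 9.24 to 15.1 CPM in WT and 15.2 to 26.1 CPM in LKO, without overlap, as were 6.31% of all genes. LKO was higher there by 0.77 on the log2 scale (SE 0.21, edgeR adjusted p 0.285, DESeq2 adjusted p 0.0198). In males the groups overlapped, and LKO was higher by 0.26 (SE 0.11, edgeR adjusted p 0.879). In whole tissue, fewer cells of a type and less RNA per cell cannot be told apart.

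Levels between genes can be compared only per length. Expressed as CPM per kb of exon, Cd38 was the most abundant of the 8, with a median of 63.7 over the 16 libraries. It was followed by Naprt at 49.6, Nadsyn1 at 22.9, Nampt at 21.1, Nt5e at 9.09, Bst1 at 5.09, Enpp1 at 2.57 and Sarm1 at 0.167 CPM per kb. Of neighbours in this order, only Naprt against Nadsyn1 and Enpp1 against Sarm1 had ranges that did not overlap over the 16 libraries, so the order of the other neighbours was not separated by the spread. Sarm1 rested on 10 to 52 counts per library. Bst1 also varied the most: its highest CPM was 9.57 times its lowest, against 3.23 times for Nt5e, 2.32 times for the sparsely counted Sarm1 and 1.18 to 1.75 times for the other 5 genes. Choosing Bst1 by its male values favoured a wide range, so its place here is a description.

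**Figure D1:**
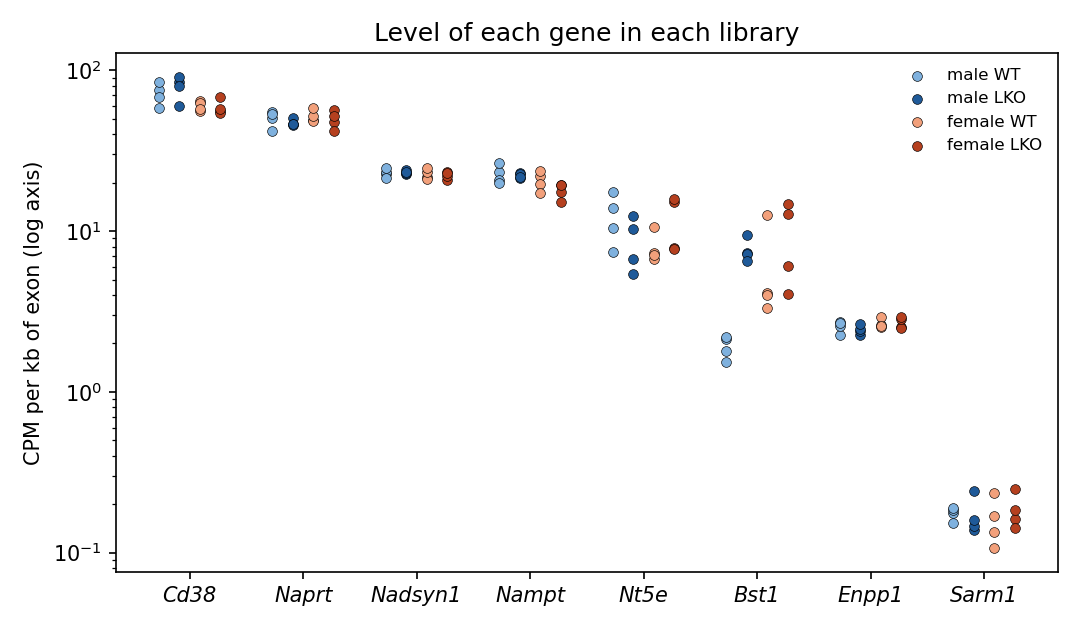
CPM per kb of exon on a log axis for each of the 8 genes, ordered by their medians. Each point is 1 library, in 4 columns, the male groups first and WT before LKO. Bst1, chosen by its male values, spans the widest range, from 1.54 to 14.8 CPM per kb, while Nadsyn1 stays between 20.9 and 24.6.

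Bst1 and Cd38 encode related enzymes that cleave NAD outside the cell and form cyclic ADP-ribose. They are neighbours on chromosome 5. In mm10, Bst1 (NM_009763) covers chr5:43818893-43843468 and Cd38 (NM_007646) covers chr5:43868809-43912374, both on the plus strand and 25340 bases apart. Their coding sequences, taken from GENCODE M21 on the same build, aligned over 789 positions, of which 476 (60.3%) were identical. The longest run of bases that both coding sequences share was 12, and the longest shared by the whole transcripts was 19, against reads of 100 bases that were kept only with a single mapping position. The stretch around the 12-base run, which lies in exon 1 of each gene, is shown because it holds the most identical coding bases in a row. It covers chr5:43819001-43819093 for Bst1 and chr5:43869022-43869114 for Cd38, on the plus strand, written 5′ to 3′ with the shared run in capitals, and 54 of its 93 bases (58.1%) match.
Bst1: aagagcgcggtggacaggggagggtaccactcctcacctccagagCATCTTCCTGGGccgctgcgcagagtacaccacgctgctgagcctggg
Cd38: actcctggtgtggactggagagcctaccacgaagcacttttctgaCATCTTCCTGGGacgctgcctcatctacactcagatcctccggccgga

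In males, Bst1 was at 3.58, 4.97, 4.16 and 5.08 CPM in WT replicates 1 to 4 and at 17.1, 16.8, 15.1 and 21.9 CPM in LKO replicates 1 to 4. Every male LKO library lay above every male WT library. The means were 4.45 ± 0.709 and 17.7 ± 2.92 CPM (SD, n = 4 each), so that LKO was 4.01-fold higher (SE 0.15 on the log2 scale). This is the contrast that chose the gene, so it carries no test. Of the 15169 genes tested in males, 1.65% had LKO libraries all above the WT libraries, and edgeR called 0.0527% in either direction.

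In females the libraries did not divide by genotype. Bst1 was at 7.75, 9.63, 9.38 and 29.5 CPM in WT and at 9.45, 29.5, 34.3 and 14.0 CPM in LKO. The groups overlapped over most of their range, because WT replicate 4 stood with the 2 highest LKO libraries and LKO replicate 1 stood with the 3 lower WT libraries. The means were 14.1 ± 10.3 and 21.8 ± 12.0 CPM (SD, n = 4 each). LKO exceeded WT by 0.61 on the log2 scale (SE 0.62, 95% interval -0.91 to 2.13, edgeR adjusted p 0.727). The interval includes both no difference and the male value. Without WT replicate 4 the log2 fold change was 1.27 (edgeR adjusted p 0.452), and without LKO replicate 3 it was 0.29 (edgeR adjusted p 0.919). The genotype effect in males exceeded that in females by 1.39 on the log2 scale (SE 0.68), and by 0.73 without female WT replicate 4. These are descriptions, since the male contrast chose Bst1.

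**Figure D2:**
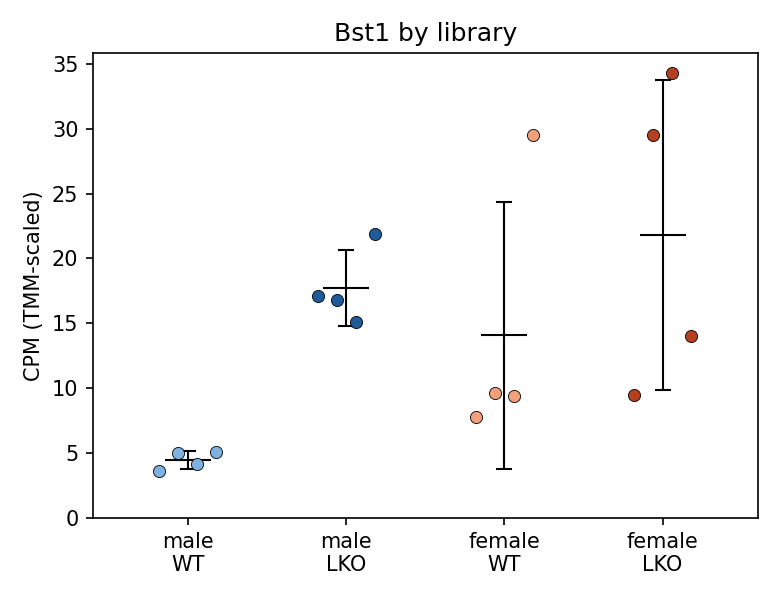
Bst1 in CPM for each of the 16 libraries by group. Points are libraries, and the bar and whiskers are the mean ± SD of 4. The male groups are apart, at 3.58 to 5.08 and 15.1 to 21.9 CPM, while the female groups overlap, with WT replicate 4 at 29.5 CPM.

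Between the sexes, male WT libraries were all below the female WT libraries, by a log2 fold change of -1.67 (SE 0.50) that became -1.01 without female WT replicate 4, where 3.91% of all genes lay below in this way. In LKO mice the sexes overlapped, at a log2 fold change of -0.28 (SE 0.43). The male WT libraries enter both the genotype comparison and the comparison of the sexes.

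Bst1 followed the number in the sample titles in a way that was noticed after its values were seen. The 8 libraries with the lowest numbers, P6308 to P6359, held 3.58 to 9.63 CPM, and the 8 with the highest, P6360 to P6444, held 14.0 to 34.3 CPM. Female WT replicate 4, the high WT library, has the number P6362, and female LKO replicate 1, the low LKO library, has the number P6310. In males every WT number is lower than every LKO number, so there the 2 orders cannot be told apart. The lower-numbered libraries were all WT but for female LKO replicate 1, and the higher-numbered all LKO but for female WT replicate 4. This division is therefore close to that by genotype. It was placed where Bst1 separates, and the share of all genes that it divides was not computed. For each of the other 7 genes the 8 lower-numbered and the 8 higher-numbered libraries overlapped.

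Taking numbers with gaps of no more than 10 as a set gave 5 sets, and only 2 of them held both genotypes of 1 sex. In the set P6308 to P6310, female WT was at 7.75 and 9.63 CPM and female LKO at 9.45 CPM. In the set P6359 to P6364, the single female WT library was at 29.5 CPM and the 3 female LKO libraries were at 14.0 to 34.3 CPM, so in neither set did the female genotypes separate. In the same set 1 male WT library was at 5.08 CPM and 1 male LKO library at 17.1 CPM. The other sets held male WT with 1 female WT library, at 3.58 to 4.97 and 9.38 CPM, or male LKO only. With the set as a factor the log2 fold change was -0.044 in females (edgeR adjusted p 0.985). The title number as a covariate gave 0.15 in females (edgeR adjusted p 0.908). What the number stands for was not stated, and its part in the Bst1 values was not tested.

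**Figure D3:**
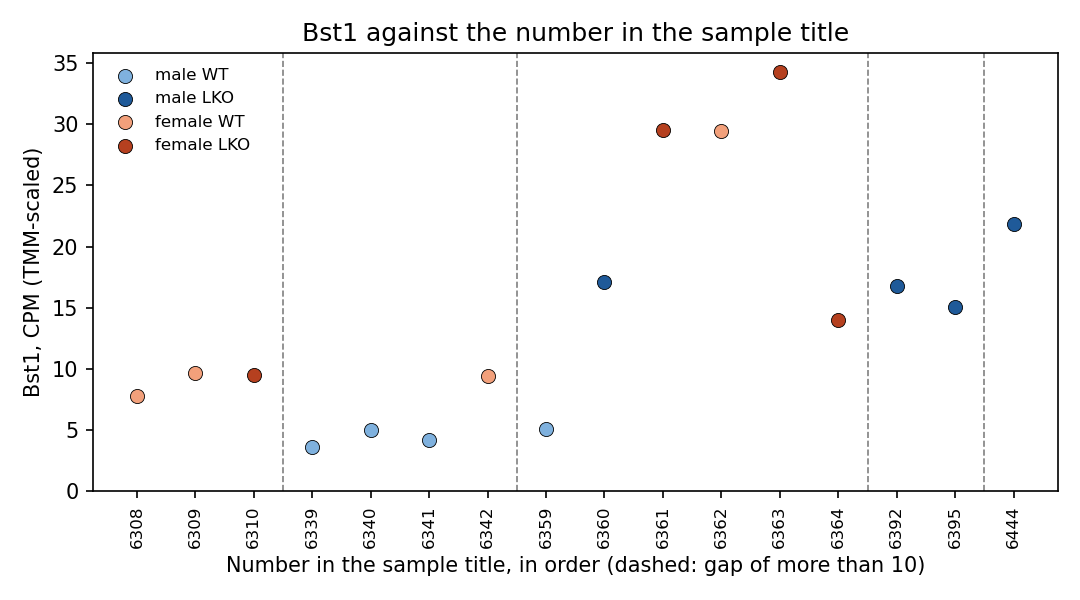
Bst1 in CPM against the number in the sample title, in rank order and not to scale, with dashed lines where numbers are more than 10 apart. Points are libraries coloured by group. The 8 libraries on the left lie at 3.58 to 9.63 CPM and the 8 on the right at 14.0 to 34.3 CPM, with both genotypes of females on each side.

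Marker genes of Paneth cells also differed by group in males. Their 13 measured markers summed to 16164 to 18623 CPM in male WT, 22366 to 28732 in male LKO, 21439 to 30514 in female WT and 26106 to 30443 CPM in female LKO. In males 13 of 13 were higher in LKO (median log2 fold change 0.48) and 9 of them had groups without overlap, where 2.95% of all genes tested in males had none in either direction. In females 10 of 13 were higher, with a median of 0.14. Some of these markers belong to families of near-identical copies, whose reads were partly dropped, and their counts are uncertain. Over the 16 libraries the sum varied 1.89-fold and Bst1 9.57-fold, and the library with the highest sum, female WT replicate 2, held 9.63 CPM of Bst1. The part of Paneth cell RNA in the Bst1 values was not tested.

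The 3 female libraries at 29.5 CPM or more of Bst1 also had the highest sums of the 8 ileal enterocyte markers of all 16. Those sums were 13860 CPM in WT replicate 4 and 14101 and 13155 CPM in LKO replicates 2 and 3, against 10094 to 12528 CPM in the others. Between genotypes 4 of the 8 markers were higher in LKO and 4 lower in each sex. Of the 8, 2 had groups without overlap in females, where 6.31% of all genes did, and 1 in males, where 2.95% did. The median log2 fold changes were 0.0038 in females (-0.60 to 1.27) and -0.024 in males. A sum can follow its most abundant genes. Of the markers only Alpi, which ranked among the genes most like Bst1, was read singly in these libraries. It was at 465 CPM in WT replicate 4 and at 422 and 433 CPM in LKO replicates 2 and 3, against 249 to 393 CPM in the others. The part of the difference in these sums in the Bst1 values was not tested either.

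Cd38, the neighbour and relative of Bst1, did not divide by group. It was at 227, 176, 204 and 255 CPM in male WT, 255, 180, 275 and 241 in male LKO, 195, 168, 188 and 173 in female WT and 169, 163, 174 and 205 CPM in female LKO. All 4 groups overlapped. LKO minus WT was 0.15 on the log2 scale (SE 0.14) in males and -0.027 (SE 0.080, 95% interval -0.22 to 0.17, edgeR adjusted p 0.913) in females. Males were above females by 0.24 (SE 0.097, edgeR adjusted p 0.289) in WT and by 0.42 (SE 0.12, edgeR adjusted p 0.107) in LKO. In the latter comparison DESeq2 gave an adjusted p of 0.0210.

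The other genes within 500 kb of Bst1 were C1qtnf7, Cc2d2a, Fbxl5, Fgfbp1, Prom1 and Tapt1. With Cd38, their log2 fold changes ran from -0.073 to 0.55 in males and from -0.32 to 0.27 in females. The male extreme of 0.55 (SE 0.27) was C1qtnf7, at 0.843 to 2.41 CPM in all libraries. Fbxl5, an iron-sensing ubiquitin ligase subunit, is annotated by GENCODE M21 on the minus strand over 2748 bases of the Bst1 interval, 359 of them exonic in Bst1, while the interval of Fbxl5 in the deposited table does not reach Bst1. It was at 60.6 to 84.1 CPM, and LKO differed from WT by 0.23 on the log2 scale (SE 0.076) in males and -0.0068 (SE 0.058, edgeR adjusted p 0.973) in females. Counting appeared to respect strand, with Xist at 457 and its antisense partner Tsix at 0.445 mean CPM in females.

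Sarm1, an intracellular NAD hydrolase known for its part in axon degeneration, was near the limit of counting. It lay between 0.548 and 1.27 CPM in all libraries, and the 4 groups overlapped. LKO differed from WT by -0.032 on the log2 scale (SE 0.29) in males and 0.18 (SE 0.30, 95% interval -0.56 to 0.91, edgeR adjusted p 0.842) in females. The female interval includes differences in either direction. Its width reflects the spread between samples as well as the low counts.

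None of the 3 genes of NAD synthesis passed the edgeR test between groups. Nampt makes nicotinamide mononucleotide from nicotinamide, the salvage step that limits the rate. It was at 106, 93.6, 90.9 and 120 CPM in male WT, 104, 97.5, 102 and 98.8 in male LKO, 99.8, 89.3, 107 and 78.7 in female WT and 87.4, 68.8, 78.8 and 88.3 CPM in female LKO. Every female LKO library lay below every male library of either genotype, which was noticed after the values were seen. Between the sexes in LKO, 12.9% of all genes had groups without overlap. The share of genes lying apart from the males of both genotypes was not computed. In LKO the males exceeded the females by 0.31 on the log2 scale (SE 0.078, edgeR adjusted p 0.0778), and DESeq2 gave an adjusted p of 0.0134. Between genotypes it differed by -0.024 on the log2 scale (SE 0.080) in males and -0.21 (SE 0.11, 95% interval -0.47 to 0.047, edgeR adjusted p 0.464) in females.

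Naprt starts synthesis from nicotinic acid, and Nadsyn1 completes it by adding the amide group. Naprt ranged from 78.5 to 110 CPM, with log2 fold changes between genotypes of -0.079 (SE 0.080) in males and -0.066 (SE 0.092, edgeR adjusted p 0.798) in females. Nadsyn1 was the steadiest of the 8, at 54.8 to 64.5 CPM. The genotypes differed by 0.019 on the log2 scale (SE 0.065) in males and -0.030 (SE 0.067, 95% interval -0.19 to 0.13, edgeR adjusted p 0.878) in females.

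**Figure D4:**
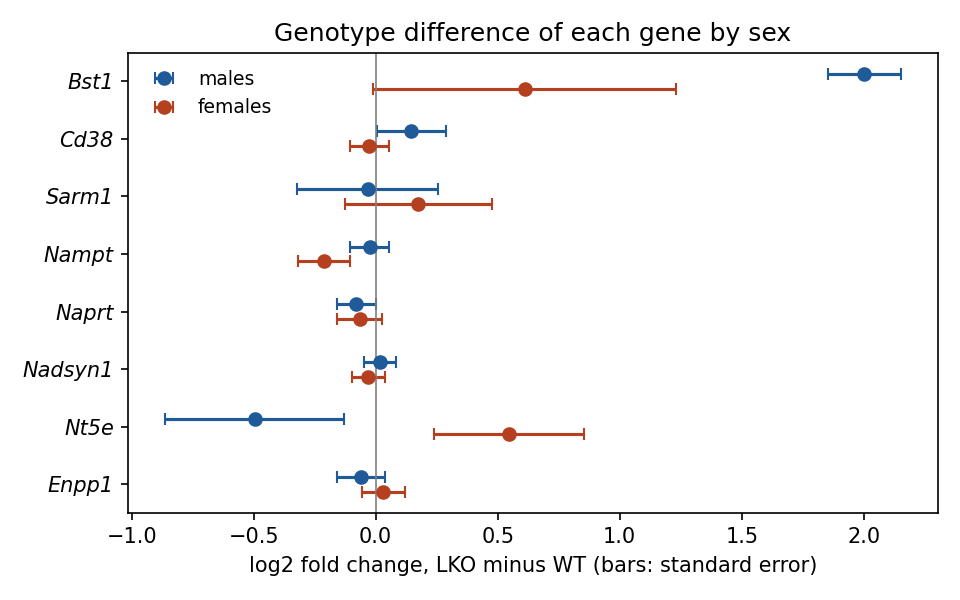
Log2 fold change between LKO and WT ileum for each of the 8 genes, with the standard error as bars, in males and in females. Bst1 in males lies at 2.0, and all other values lie between -0.50 (Nt5e in males) and 0.61 (Bst1 in females).

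Nt5e and Enpp1 act on nucleotides outside the cell. Enpp1 hydrolyses ATP and NAD, and Nt5e, also called CD73, converts the AMP that results to adenosine. Enpp1 was at 15.2 to 19.9 CPM in all libraries, with log2 fold changes of -0.059 (SE 0.098) in males and 0.032 (SE 0.088, edgeR adjusted p 0.905) in females.

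Nt5e was the only other member with a wide spread and an adequate count. It was at 50.02, 62.3, 26.3 and 37.3 CPM in male WT and 44.1, 36.8, 19.3 and 23.8 CPM in male LKO. In females it was at 23.9, 26.1, 25.5 and 37.7 CPM in WT and 28.1, 54.4, 56.5 and 27.7 CPM in LKO. The groups overlapped in both sexes, and the direction of the means was opposite. LKO minus WT was -0.50 on the log2 scale (SE 0.37) in males and 0.55 (SE 0.31, 95% interval -0.21 to 1.30, edgeR adjusted p 0.519) in females.

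The 3 female libraries with the most Bst1 were also the 3 female libraries with the most Nt5e. Of these, LKO replicates 2 and 3 had the largest sums of 7 B-cell markers of all libraries, at 206 and 390 CPM. The third largest sum, 122 CPM, was in male WT replicate 2, the library with the most Nt5e. In WT replicate 4, with 37.7 CPM of Nt5e, the sum was 24.3 CPM. B-cell marker sums were 17.8 to 122 CPM in male WT, 22.7 to 26.0 in male LKO, 24.3 to 73.1 in female WT and 29.2 to 390 CPM in female LKO, and no marker was at 0 in a whole group. In males 5 of 5 tested B-cell markers were lower in LKO (median log2 fold change -0.97), and in females 6 of 6 were higher (2.30). In both sexes 0 of them had groups without overlap, where 2.95% of all genes did in males and 6.31% in females. Apart from replicate 2, the male WT sums were 17.8, 26.3 and 22.4 CPM. Female LKO replicates 1 and 4 had sums of 30.4 and 29.2 CPM. The 8 T-cell markers summed to 167 to 252 CPM in male WT, 152 to 174 in male LKO, 140 to 249 in female WT and 122 to 223 CPM in female LKO, and 8 of 8 were lower in male LKO (median -0.28) and 6 of 8 in female LKO (median -0.050). Of the 8 T-cell markers, 1 had groups without overlap in males and 0 in females. The part of B and T cells in the Nt5e values was not tested.

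**Figure D5:**
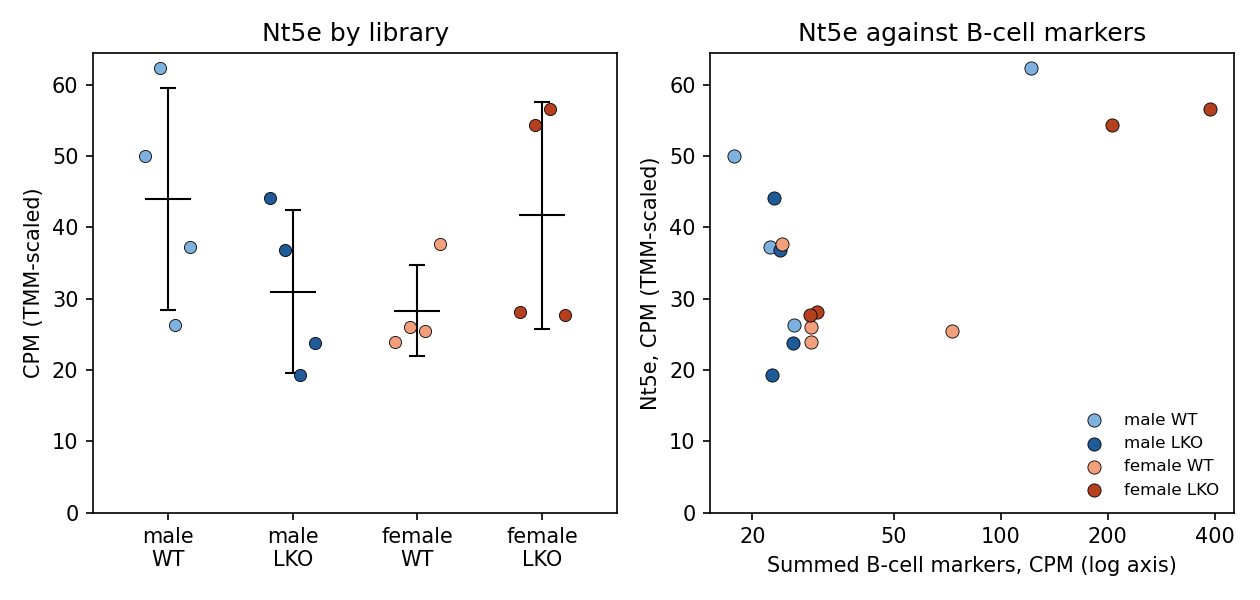
Left, Nt5e in CPM for each library by group, with the mean ± SD of 4. Right, the same Nt5e values against the sum of 7 B-cell markers on a log axis. The 3 libraries with sums of 122 to 390 CPM hold 54.4 to 62.3 CPM of Nt5e, and the others hold 19.3 to 50.02 CPM.

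Counted together, 0 of the 8 genes passed the edgeR test between genotypes in females, where 0.0392% of the 15298 genes tested did. None had an unadjusted p below 0.05, and DESeq2 called 0 of them and 1.02% of all genes. Of the 7 genes other than Bst1, log2 fold changes in females ran from -0.21 to 0.55 with a median of -0.027, against 0.0070 over all genes, and in males from -0.50 to 0.15 with a median of -0.032, against -0.0020 over all genes. None of the 7 had groups without overlap in either sex, where 6.31% of all genes did in females and 2.95% in males. Between males and females in WT, edgeR called 0 of the 7 and 0.25% of all genes, with 1 gene (Cd38) below an unadjusted 0.05 and 0 called by DESeq2, which called 2.45% of all genes. In LKO it called 0 of the 7 and 0.0984% of all genes, with 2 (Nampt and Cd38) below an unadjusted 0.05. DESeq2 called those 2, where it called 7.50% of all genes, and 1 of the 7 (Nampt) had groups without overlap, where 12.9% of all genes did.

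The wider NAD pathway was read from a list of 95 gene names for synthesis, transport, consumption, extracellular breakdown and receptors, of which 91 were in the table. In females 83 were tested and edgeR called 0, with 51 higher and 32 lower in LKO and a median log2 fold change of 0.033. At an unadjusted 0.05 there were 11, where 11.7% of all genes passed, and DESeq2 called 0. In males 82 were measured, 32 higher and 50 lower, with a median of -0.025.

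The largest female differences in the list did not pass the test. Haao, an enzyme of NAD synthesis from tryptophan, was 1.22 higher in LKO on the log2 scale (SE 0.76, edgeR adjusted p 0.551), from 0.74 to 6.91 CPM in LKO and 0.93 to 1.38 in WT. Ada, which deaminates adenosine, differed by 0.93 (SE 0.57, edgeR adjusted p 0.552), and the adenosine receptor gene Adora1 by 0.55 (SE 0.16, edgeR adjusted p 0.278). Adora1 was at 3.18 to 3.78 CPM in WT and 4.36 to 6.23 CPM in LKO, 1 of 6 tested list genes (of 83) without overlap, where 6.31% of all genes had none. The other 5 were Enpp3, Slc25a51, Slc29a2, Pnp and Sirt6. In males the largest among list genes at a mean of at least 1 CPM were Art4 at 0.50 (SE 0.37), Enpp3 at 0.41 (SE 0.20) and Nmnat2 at -0.34 (SE 0.28), all with overlapping groups.

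By role, 4 of the 5 receptor genes for adenosine and nicotinate had enough counts to be tested, and none of the 4 passed the edgeR or the DESeq2 threshold in females. Their log2 differences were 0.21 to 0.55 in females and -0.092 to 0.26 in males, and the fifth, Adora2b, averaged 0.457 CPM in LKO and 0.556 in WT females. The 26 NAD-consuming enzymes were divided, 12 higher and 14 lower in females and 9 higher and 17 lower in males, with medians of -0.018 and -0.030. Nmnat1, Nmnat2 and Nmnat3, whose enzymes join the adenylyl group to the mononucleotide, were at -0.0042, -0.029 and 0.0070 in females and at -0.067, -0.34 and -0.12 in males on the log2 scale.

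Between the sexes the list had 0 genes called by edgeR in WT, with 7 below an unadjusted 0.05 where 13.9% of all genes were, and DESeq2 called 1 of 83 (Entpd8), where it called 2.45% of all genes. That surface enzyme of ATP breakdown was at 172 to 197 CPM in male WT and 150 to 159 CPM in female WT. In LKO edgeR again called 0, with 21 below an unadjusted 0.05 where 22.6% of all genes were. DESeq2 called 5 of 83, where it called 7.5% of all genes. Of the 5, Tiparp and Tnks2, both ADP-ribosyltransferases, were higher in males and Enpp2, Entpd1 and Adora1 were lower.

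The genes whose levels were most like Bst1 across the 16 libraries were ranked by Pearson's r of log2 CPM among 14422 genes, as a description. They were Sqstm1 (r 0.884), Vnn1 (0.860), Lpcat4 (0.860), Auh (0.838) and Itln1 (0.836), with Spearman's rho of 0.735 to 0.926. Without the libraries with the lowest and the highest Bst1, r was 0.793 to 0.857. Sqstm1 encodes the autophagy receptor p62, Vnn1 a pantetheinase, and Itln1 an intelectin that is also 1 of the 13 Paneth markers. Itln1 averaged 1459 ± 80.3 CPM in male WT, 2300 ± 155 in male LKO, 2335 ± 436 in female WT and 2584 ± 83.6 CPM in female LKO (SD, n = 4 each).

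When each group's mean was taken out, so that only differences within groups counted, the 5 closest genes were others: Alpi (r 0.918), Grk5 (0.888), Thap7 (0.879), Tmem131 (0.860) and Ada (0.851). Without female WT replicate 4 and female LKO replicate 1, r was 0.692 to 0.846. The group means still included both libraries, which shifts the deviations of the others, so this r is not free of them. Alpi, the intestinal alkaline phosphatase, and Ada are both on the NAD pathway list. Alpi is also among the ileal enterocyte markers summed above, so those sums include it. In females Ada was at 103, 145, 135 and 338 CPM in WT and 150, 534, 471 and 221 CPM in LKO. It was high and low in the same libraries as Bst1, which its place in this ranking already implies. In males it was at 266 to 501 CPM with no such split.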

How the data were processed

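The authors made stranded mRNA libraries, read them as 100 bp single ends, aligned them to mm10 with STAR 2.5.2 keeping single mapping positions, and counted reads over exons with HOMER 4.10. The deposited values are raw counts per gene, 1 transcript per gene, not scaled. The strand option of the counting is not given in the sources used here. Of the per-sample columns, all 16 were used. Groups came from the sample titles.

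Genes passing filterByExpr were tested on the counts in edgeR 4.0.16 by its quasi-likelihood F-test (R 4.3.3, robust fit, 8 libraries per comparison), adjusted by the Benjamini-Hochberg method over all genes at 0.05. The interaction used 16 libraries. DESeq2 1.42.0, which the authors used, was an alternative. The method was also run on simulated counts, whose outcome is not given here. Those counts held no differences by title number or cell type, so that run cannot speak to either. Likeness used log2 CPM with a prior count of 2 and genes of at least 1 mean CPM. Named beyond the 8 genes were neighbours within 500 kb, the 5 most alike by each measure, list genes past the threshold, and the 3 with the largest log2 fold change per genotype comparison at a mean of at least 1 CPM. Other list genes were named after their values were seen. The members and lists were chosen with earlier results of these data known. The titles number the replicates without saying that they are separate mice, so p-values measure the spread between these samples. The floor covers counting error only. Sequences are from GENCODE M21.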

Additional observations from a re-analysis of the deposited data

Results flagged for a closer look

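In 2 of the 32 sets of 4 libraries (8 genes in 4 groups), 1 library lay far from its group, where chance alone flags about 1 in 20 such sets. Bst1 in female WT replicate 4 was at 29.5 CPM and the next highest female WT library at 9.63 CPM, a gap of 0.913 of the group's range, above Dixon's critical value for 4 samples. Nt5e in the same library was at 37.7 CPM and the next highest at 26.1 CPM, a gap of 0.840 of the range. Both values are high in the one female WT library whose title number falls in the set P6359 to P6364.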

How the results depend on the processing

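Between genotypes, Bst1 in females kept its direction and stayed short of the threshold under other scalings, filters and fits, DESeq2 and the thinned deepest library, and fell to 0.15 with the title number as a covariate. With the set of title numbers as a factor, an alternative chosen after seeing the data, it was -0.044. Leaving out 1 library at a time gave 0.29 to 1.27. In males Bst1 was 1.88 to 2.07 leaving out 1 library, and 1.71 with the title number as a covariate. Every male WT number is lower than every male LKO number, so that covariate cannot separate number from genotype. With the set Bst1 was 1.75 in males, which rests on the 1 WT and 1 LKO library of the only set with both male genotypes. The difference of the genotype effects ran from 0.73 (without female WT replicate 4) to 1.71. The counts of members called in females and between the sexes in WT, and of list genes called in females, were 0 under every alternative run. Between the sexes in LKO, DESeq2 called 2 members, and leaving out 1 library gave 0 to 1: Cd38 without male LKO replicate 2 (edgeR adjusted p 0.0377), Nampt without female LKO replicate 4 (edgeR adjusted p 0.0363). Calls over all genes there went from 15 to 63 of 15390 and to 665 of 15340. The causes were not tested.

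Replicate numbers did not pair the samples (correlations of deviations -0.17 to 0.32). With replicate as a block, Bst1 was 0.67 in females (edgeR adjusted p 0.741), 0 members were called in any tested comparison, and calls over all genes went from 6 to 15 in females and from 8 to 16 in males. DESeq2 called 154 and 63 genes there, and 261 and 1069 between the sexes in WT and LKO, where edgeR called 38 and 15.

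Small differences changed sign. Among tested comparisons with the set as a factor these were Sarm1 in females (-0.012), Nadsyn1 (-0.085) and Enpp1 (0.0097) between the sexes in WT, and Naprt (0.0061) and Nadsyn1 (-0.00090) in LKO. Nadsyn1 in WT was also -0.0030 with upper-quartile scaling and -0.022 with the title number. Untested male genotype values also did. With the title number as a covariate Nt5e was 0.051 and Naprt 0.042. With the set, again 1 library against 1, Nt5e was 0.25, Naprt 0.28 and Cd38 -0.00022. Without male WT replicate 4 Nampt was 0.057, Nadsyn1 -0.016 and Sarm1 0.0026, and leaving out 1 library Sarm1 reached 0.066. Bst1 between the sexes in LKO was 0.041 without female LKO replicate 3. The differences of the genotype effects for Naprt and Nadsyn1, at -0.017 and 0.045, changed sign as well, to 0.18 for Naprt with the set and -0.010 for Nadsyn1 with the title number. Leaving out 1 library, the female genotype difference ran from -0.10 to 0.012 for Cd38, -0.14 to 0.0028 for Naprt, -0.065 to 0.0081 for Nadsyn1 and -0.0087 to 0.078 for Enpp1. The difference of the sexes ran from -0.099 to 0.021 for Naprt, -0.019 to 0.054 for Nadsyn1 and -0.043 to 0.35 for Sarm1 in WT, and -0.30 to 0.063 for Sarm1 in LKO.

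Counts of 10 to 52 limit Sarm1. Genotype and Cre are not separated by this design, since no group carried Cre without the floxed allele.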
